A study of Mus musculus with 3 samples.

Results

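The 76 genes described here encode the proteins of the cytosolic ribosome, 46 of the large subunit and 30 of the small subunit, out of 24421 genes counted by RNA-Seq in mouse ES cells. They were chosen by symbol alone (Rpl or Rps with a number and, in some, a final a or x, the stalk genes Rplp0 to Rplp2, and Rpsa), and no measured value entered the choice. The study asked how loss of NUP153, a protein of the nuclear basket of the nuclear pore, affects transcription. The cells were the female EL 16.7 line (F2, 129S1/CastEiJ x 129S1), undifferentiated and grown with LIF on irradiated feeder fibroblasts (MEFs) from Tg(DR4)1Jae/J mice. Control cells received lentivirus with a scrambled shRNA, and the KD-1 and KD-2 cells received lentivirus with NUP153 shRNA 1 or 2. All 3 cultures were selected with 2 μg/ml puromycin for 2 days, so each library came from a pool of transduced cells with feeders, not from a clone. There was 1 library per condition, and no spread between replicates could be measured for any single condition.

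A ribosome is built from rRNA and about the same number of copies of each ribosomal protein, so the mRNAs of these proteins are among the most abundant in a growing cell. Most of them begin with a run of pyrimidines, the terminal oligopyrimidine (TOP) motif, through which mTOR signalling and LARP1 regulate their translation and stability together. In ES cells, which divide fast, ribosomal proteins are needed in large amounts, and a shortage of single members is known to stabilise p53 through the large subunit proteins RPL5 and RPL11.

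The 4 members at the ends of the difference between KD-2 and control, described further on, are shown here by their coding sequence, because the 72 well-read members were ordered along the GC content of that sequence. The first 150 coding bases are given 5′ to 3′ from GENCODE transcripts on GRCm38, with G and C in capitals. Rpl39 (chrX:37082520-37085402, minus strand) and Rps27a (chr11:29545846-29548109, minus strand) were the lowest in KD-2. Rpl13 (chr8:123102350-123105244, plus strand) and Rpl36 (chr17:56613416-56614243, plus strand) were the highest among members with a mean of at least 1000 reads. RPL39 is a small basic protein near the exit tunnel, and Rps27a encodes ubiquitin fused to a small subunit protein, so the stretch shown for it is ubiquitin.
Rpl39: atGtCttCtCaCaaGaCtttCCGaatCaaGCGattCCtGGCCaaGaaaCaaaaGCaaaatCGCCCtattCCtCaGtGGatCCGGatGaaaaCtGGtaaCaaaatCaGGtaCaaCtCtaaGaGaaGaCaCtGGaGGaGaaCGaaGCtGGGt
Rps27a: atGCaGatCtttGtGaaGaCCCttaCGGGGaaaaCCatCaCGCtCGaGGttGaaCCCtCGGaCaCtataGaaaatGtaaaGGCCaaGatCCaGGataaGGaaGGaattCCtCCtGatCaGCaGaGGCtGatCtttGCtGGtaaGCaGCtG
Rpl13: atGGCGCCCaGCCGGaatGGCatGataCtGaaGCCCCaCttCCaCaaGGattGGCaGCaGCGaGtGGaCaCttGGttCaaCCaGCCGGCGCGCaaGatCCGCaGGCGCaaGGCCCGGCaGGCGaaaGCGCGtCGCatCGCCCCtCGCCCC
Rpl36: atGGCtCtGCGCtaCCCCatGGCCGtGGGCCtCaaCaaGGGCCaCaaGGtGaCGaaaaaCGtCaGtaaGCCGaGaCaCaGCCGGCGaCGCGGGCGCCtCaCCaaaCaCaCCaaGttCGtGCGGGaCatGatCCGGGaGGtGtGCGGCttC
Of these 150 bases, G or C made up 67 in Rpl39, 72 in Rps27a, 99 in Rpl13 and 94 in Rpl36. Over the whole coding sequence the GC content was 45.1% in Rpl39, 45.9% in Rps27a, 58.5% in Rpl13 and 61.6% in Rpl36.

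The control, KD-1 and KD-2 libraries held 72344726, 85258834 and 69839336 reads on genes. Nup153 itself had 27870, 16451 and 11126 reads in these libraries, which after scaling left 0.504 of the control level with shRNA 1 and 0.371 with shRNA 2. All 10 pluripotency markers had at least 7005 reads in every library, with summed levels of 4881, 5300 and 4033 RPM (reads scaled to 1000000 reads on genes; control, KD-1, KD-2). The 12 markers of feeder fibroblasts, none of them at 0, summed to 2369, 1624 and 4361 RPM. Against control, all 12 were lower in KD-1 while all 12 were higher in KD-2, and in bulk RNA fewer cells of a type and less RNA per cell cannot be told apart. The 6 primitive endoderm markers summed to 94.98, 80.7 and 169.7 RPM. Most of each sum was Pdgfra alone, at 88.78, 73.36 and 158.9 RPM. Each of the other markers had few reads, at most those of Dab2 (361, 502 and 604), so the sums mainly follow 1 gene. The part of these shifts in the differences below was not tested.

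Ribosomal protein genes took 10.4%, 10.05% and 8.87% of all reads on genes (control, KD-1, KD-2). The exact Clopper-Pearson 95% intervals of these shares were 10.38% to 10.39%, 10.04% to 10.06% and 8.87% to 8.88%, and cover counting error only. The large subunit took 6.09%, 5.94% and 5.32% of the reads, respectively. For the small subunit the shares were 4.29%, 4.11% and 3.56%. For each small subunit read there were 1.42, 1.45 and 1.496 large subunit reads. The KD-2 library thus held the lowest share for both subunits, and the KD-1 share lay between KD-2 and control.

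Of the 76 members, 72 were well read, with mean counts over the 3 libraries from 23908 (Rplp2) to 235846 (Rps4x). They were 43 large and 29 small subunit genes. The other 4 stood far below, and 3 of them had a mean of at least 10 reads, the minimum for a fold change. Rps27, whose protein contains a zinc finger, had 241, 307 and 291 reads in control, KD-1 and KD-2. The large subunit genes Rpl30 and Rpl34 had 74, 54 and 81 reads and 80, 101 and 139 reads. Rpl26, also of the large subunit, had 0 reads in all 3 libraries, which allows up to 3 reads in each.

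These 4 members have near-identical copies elsewhere in the genome, and reads of 50 bp that match both copies cannot be assigned to either, so their counts are uncertain. The coding sequence of Rps27 was the same over all 252 bases as that of Rps27rt, an intronless copy on chromosome 9 (chr9:114982366-114982739) that had 0 reads in every library. Its first 60 coding bases are shown because no base of them, and none of the other coding bases, separates the 2 genes.
Rps27: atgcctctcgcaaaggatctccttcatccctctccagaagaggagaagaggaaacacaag
The coding sequence of Rpl30 differed at 1 of 345 bases from the processed pseudogene Gm12191, that of Rpl34 at 2 of 351 bases from Rpl34-ps1, and that of Rpl26 at 2 of 435 bases from Gm15772. Gm12191 had 2 reads in control and 0 in both knockdown libraries, and Rpl34-ps1 and Gm15772 had 0 reads in all 3. The authors kept only reads with a high mapping quality, and whether that set the low counts was not tested. Of all 76 members, 66 shared over 50% of their coding words of 50 bases with another annotated gene, and 30 shared all of them. With genes in the count files the sharing was lower: 12 members shared over 50% and 51 shared none. Those 12 included the 4 members with few reads, from 72.2% (Rpl34) to 100% (Rps27). They also included well-read members, such as Rps23 at 91.8% and Rpl37 at 82.2%.

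Levels between genes were compared as RPKM, the reads of a gene divided by its exon length in kilobases and scaled to 1000000 reads on genes. In control the well-read members ranged from 111 RPKM (Rps15a) to 2546 RPKM (Rplp1), with a median of 773 RPKM. The medians of the knockdown libraries were 751 RPKM (KD-1) and 584 RPKM (KD-2). The highest 5 levels in control were those of Rplp1 at 2546, Rps29 at 2399, Rps4x at 2135, Rplp0 at 1828 and Rpl19 at 1767 RPKM. RPLP1 and RPLP0 form the stalk that recruits elongation factors, and RPS29 and RPS4X are small subunit proteins. The lowest well-read levels were those of Rps15a at 111 and Rplp2 at 137 RPKM. RPLP2 is the partner of RPLP1 in the stalk, and its gene stood 18.6-fold below Rplp1 on this scale. Part of that gap follows the exon length used, since all annotated exons of Rplp2 together span 2072 bases and those of Rplp1 499 bases. With the length of 1 RefSeq-paired transcript, the levels in control were 294 RPKM for Rplp2 and 2546 RPKM for Rplp1. The order of the members also depended on the length used: with transcript length the highest in control was Rpl41 at 4496 RPKM, and Rplp1 was no longer among the highest 5. On that scale the median over the members with at least 10 reads was 1494 RPKM in control against 703 RPKM with all exons.

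**Figure D1:**
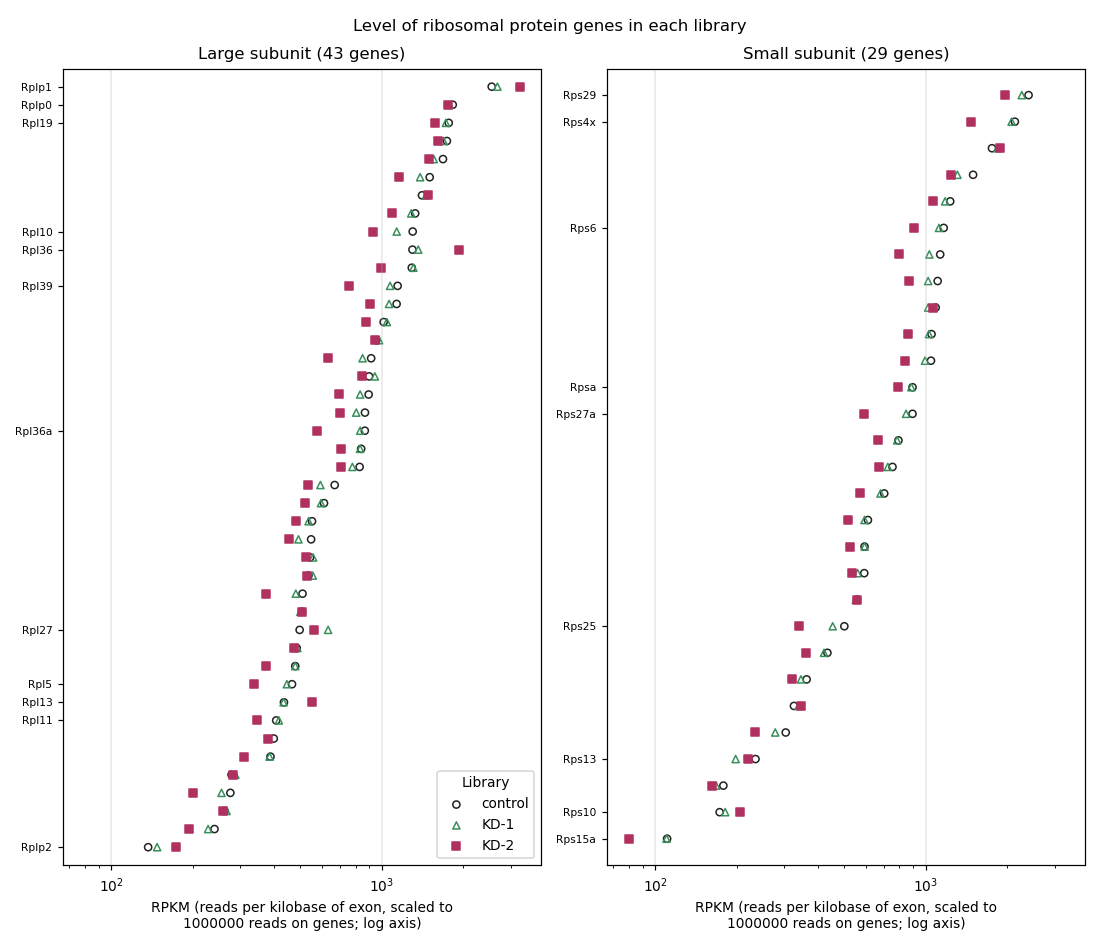
Level of each of the 72 well-read ribosomal protein genes in control (circle), KD-1 (triangle) and KD-2 (square), in RPKM on a log axis, large subunit left and small subunit right. Genes are ordered by their level in control, with some of those described in the text named on the axis, from Rplp2 at 137 and Rps15a at 111 at the bottom to Rplp1 at 2546 and Rps29 at 2399 at the top, and most KD-2 squares lie left of the control circles.

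The first comparison was KD-1 against control. Ribosomal protein genes differed little between these libraries. The median log2 fold change of scaled reads was -0.03 over the 75 members that averaged at least 10 reads, against 0.02 over all 16670 such genes. For the large subunit the median was -0.03 and for the small subunit -0.05. Of the 75 members, 24 were above 0 and 51 below. A single member passed a fold change of 1.5, Rpl30, which was lower (log2 fold change -0.68, 95% counting interval -1.22 to -0.16) on counts of 74 and 54 reads. Over all genes, 5.62% were lower and 8.63% higher past 1.5-fold in KD-1, 14.2% in either direction, and 4.2% of genes with 1000 reads or more on average did. None of the 72 well-read members passed 1.5-fold. Past a log2 fold change of 0.32, a lower bar, 1 member was higher and 1 lower, where 19.1% and 12.7% of all genes were, and 0 members passed 2-fold, where 4.62% of all genes did. With 1 library per condition no test between conditions was made, and counting intervals of well-read members reached at most 0.03 to each side.

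Among well-read members Rpl27, of the large subunit, was set apart in KD-1. It had 59632, 76426 and 60421 scaled reads (control, KD-1, KD-2), so that KD-1 was higher and control and KD-2 were close. Against control this was a log2 fold change of 0.36 for KD-1 (95% counting interval 0.34 to 0.37), and of 0.02 for KD-2. The next highest in KD-1 were Rps27 at 0.12, Rplp2 at 0.12, Rpl34 at 0.11 and Rpl36 at 0.08, with the counting intervals of Rps27 and Rpl34 spanning 0. At the other end Rps13, a small subunit gene, had 49450, 42007 and 41622 scaled reads (control, KD-1, KD-2). The log2 fold changes were -0.24 (KD-1) and -0.25 (KD-2), and both knockdown libraries lay below control. Rpl10, Rpl14 and Rpl6 were also among the lowest in KD-1, at -0.19, -0.17 and -0.15. The scaling of the libraries, which shifts all genes of a comparison together, set the sign of 15 of the 72 members that lay near 0 in KD-1. Under all 4 scalings 7 were above 0, Rpl27 and Rplp2 included, and 50 below, and the members' median less that of all genes was -0.05 under each.

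In KD-2 most ribosomal protein genes were lower than in control. The median log2 fold change was -0.39 over the 75 members, against -0.02 over all genes, and 66 of 75 members were below 0. Of all genes 8624 of 16670 were below 0, and of those that averaged 1000 reads or more 5074 of 7881 were. Scaled by total reads on genes, the medians were -0.23 over the members, with 61 of 75 below 0, and 0.14 over all genes. The medians were -0.38 for the large and -0.41 for the small subunit, with 38 of 45 large and 28 of 30 small subunit genes below 0. Past 1.5-fold, 12 members were lower (7 large, 5 small) and 1 was higher. Over all genes tested, 10.2% were lower and 17.1% higher past 1.5-fold in KD-2, 27.3% in either direction. Of genes that averaged 1000 reads or more, 9.12% were lower and 8.3% higher. No member reached a fold change of 2 in KD-2, a size that 7.27% of all genes passed. Past a log2 fold change of 0.32 there were 47 members lower and 2 higher, where 26.9% and 28.7% of all genes were. The shift of the members was thus wide and shallow, below 0 in nearly all and past 1.5-fold in few. It was not particular to them. Of 582 other genes that averaged 20000 reads or more, 507 were below 0 and 111 were lower past 1.5-fold, with a median of -0.40.

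The lowest members in KD-2 came from both subunits. Rpl39 had 128230, 120953 and 76099 scaled reads (control, KD-1, KD-2), which put KD-2 at -0.75 (95% counting interval -0.77 to -0.74). Rps27a had 137788, 131149 and 81813 scaled reads (-0.75 in KD-2, -0.77 to -0.74). KD-1 stood near control in both genes, and KD-2 was lower than either library. Rpl36a, of the large subunit, had 111934, 108240 and 66885 scaled reads (-0.74). Rps25, known for its role in initiation at internal ribosome entry sites, had 105286, 95899 and 64317 (-0.71). Rps4x, the X-linked gene of a small subunit protein, had 272244, 266307 and 167420 (-0.70). The remaining members lower past 1.5-fold were Rpl7 at -0.68, Rps23 at -0.67, Rpl10 at -0.65, Rps15a at -0.63, Rpl5 at -0.63, Rpl35a at -0.62 and Rpl9 at -0.60. Just short of it lay Rpl32 at -0.54 and Rpl38 at -0.54. With total reads on genes in place of upper-quartile scaling, the members lower past 1.5-fold were 3 (Rpl39, Rps27a and Rpl36a), and under TMM or DESeq2 size factors they were 10. Less the median of other genes of like coding GC content, described further on, none of these 12 passed 1.5-fold and 1 other member did, Rps29.

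A set of 6 well-read members were above 0 in KD-2 under each of the 4 scalings used. Rpl36, of the large subunit, had 38847, 41054 and 51957 scaled reads (control, KD-1, KD-2) (log2 fold change 0.42 in KD-2, 95% counting interval 0.40 to 0.44). Rpl13 had 88214, 88458 and 100722 scaled reads (0.19). Here too KD-1 was nearer to control than KD-2 was. The stalk genes Rplp1 and Rplp2 had log2 fold changes of 0.18 and 0.18, while Rplp0, which anchors them to the ribosome, was at -0.22. Rps10 was at 0.10 and Rpl27 at 0.02. The member higher past 1.5-fold was Rpl34, at 0.69 on 80 and 139 reads (95% counting interval 0.28 to 1.10), which was 1 of the 4 members with few reads.

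Members with known roles outside bulk protein synthesis were spread over this range. Rpl5 and Rpl11, whose proteins join the small rRNA of the large subunit and bind MDM2, were at -0.63 and -0.40 in KD-2, compared with -0.05 and 0.04 for KD-1. Rps6, the substrate of S6 kinase, had 144460, 139617 and 100479 scaled reads (control, KD-1, KD-2) (-0.52). Rpsa, which also codes for a laminin receptor, was at -0.34 in KD-2 and -0.01 in KD-1. Of further genes whose human counterparts, like those of Rpl5 and Rpl11, are mutated in Diamond-Blackfan anaemia, Rpl35a was at -0.62, Rps24 at -0.53, Rps7 at -0.45, Rps19 at -0.30, Rps26 at -0.07 and Rps10 at 0.10 in KD-2.

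**Figure D2:**
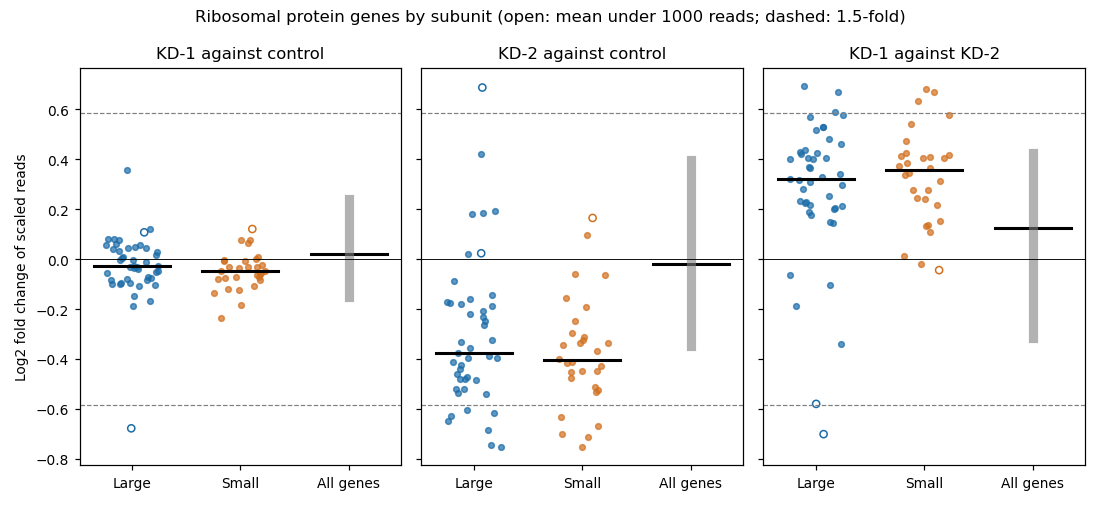
Log2 fold change of scaled reads of each ribosomal protein gene with a mean of at least 10 reads in 3 comparisons (panels), by subunit; thick lines are medians, the grey bar gives the quartiles of all 16670 genes, open points are members with a mean under 1000 reads and dashed lines mark 1.5-fold. Medians of the large and small subunit are -0.03 and -0.05 in KD-1 and -0.38 and -0.41 in KD-2.

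KD-1 was also compared to KD-2 directly, a comparison that shares its libraries with those above. The median over the members was 0.34, against 0.12 over all genes, and 67 of 75 members were higher in KD-1, as were 9824 of all 16670 genes. The 582 other genes that averaged 20000 reads or more had a median of 0.38. Of these, 501 were above 0, 83 were higher past 1.5-fold and 32 lower. Under total reads the medians of the members and of all genes were 0.17 and -0.04. Less the median of genes of like coding GC content the members were at 0.18. Large and small subunit medians were 0.32 and 0.36. Past 1.5-fold 6 members were higher in KD-1 and 1 was lower, where 13.9% and 16.1% of all genes were, 30.1% in either direction. The 6 were Rpl36a at 0.69, Rps27a at 0.68, Rps4x at 0.67, Rpl39 at 0.67, Rps15a at 0.63 and Rpl7 at 0.59. The 1 that was lower was Rpl30 at -0.70. Of well-read members Rpl36 at -0.34 and Rpl13 at -0.19 were the lowest, followed by Rplp1 at -0.11 and Rplp2 at -0.06, and Rpl34 was at -0.58. Past a log2 fold change of 0.32 there were 40 higher and 3 lower, where 33.6% and 24.8% of all genes were, and past 2-fold 0, where 11% of all genes were. The count past 1.5-fold was sensitive to these settings: 4 were higher under TMM, 1 under DESeq2 size factors, 0 under total reads and 0 less the GC median.

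With both knockdown libraries taken as a group, the only test that has a spread between libraries could be run. In edgeR's quasi-likelihood test with Benjamini-Hochberg adjustment, 0 of 75 members and 4 of 21164 genes were called at an adjusted p under 0.05, a background of 0.0189%. None of the members had an unadjusted p under 0.05. The lowest was that of Rps25, with an unadjusted p of 0.396 and an adjusted p of 1.00. The median log2 fold change of members in this fit was -0.19, from -0.39 to 0.44. It was -0.35 with KD-2 as the only knockdown library and -0.05 with KD-1 as the only one, values with no test. DESeq2's Wald test also called 0 members, with 0 at an unadjusted p under 0.05, and 2 genes in all (0.00945%). The spread in this test came from KD-1 and KD-2 alone, with 1 residual degree of freedom.

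Across members the KD-2 difference followed GC content. Over the 72 well-read members, coding GC content ranged from 45.1% (Rpl39) to 61.6% (Rpl36), with a median of 53.4%. It was correlated with the KD-2 log2 fold change at a Pearson r of 0.78 and a Spearman rho of 0.80, as a description over genes that share the same libraries. Without the 4 members on the X chromosome r was 0.76 and rho 0.78 over 68 members. In KD-1 the values were 0.40 and 0.50. The 7630 other protein coding genes with 1000 reads or more on average showed r of 0.47 and rho of 0.47 in KD-2 and 0.06 and 0.10 in KD-1. The mean coding GC content of the reads was 50.3%, 50.4% and 51.05% (control, KD-1, KD-2), and without the ribosomal protein genes 50.05%, 50.1% and 50.8%. The KD-2 library as a whole therefore held reads from genes of higher GC content, and the part of this shift in the members' values was not tested.

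Set beside genes of like GC content, members were lower in KD-2. For the 7 members with a coding GC content under 48% the median was -0.68, against -0.35 for 2286 other genes that averaged 1000 reads or more. From 48% to 53% it was -0.47 for 28 members and -0.20 for 2226 other genes. From 53% to 58% it was -0.31 for 29 members and -0.03 for 2027 other genes, and at 58% or more -0.07 for 8 members and 0.24 for 1091 other genes. The difference between members and other genes thus lay between -0.34 and -0.27 in all 4 ranges. After the median of other genes within 1 percentage point of GC content was taken off each member, the median over the 72 was -0.28, with 66 below 0 and 6 above. On that scale the lowest member was Rps29 at -0.66, whose KD-2 log2 fold change was -0.45 at a coding GC content of 59.5%. The highest was Rplp2 at 0.16, and Rpl36 was at 0.03, close to other genes of its GC content.

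These other genes were read far less than the members. Of 582 other genes that averaged 20000 reads or more, 507 were below 0 in KD-2 and the median was -0.40, next to -0.40 for the 72 well-read members. Of these 582, 111 were lower past 1.5-fold and 22 higher. Within the same 4 ranges of GC content, their medians were -0.50, -0.40, -0.24 and -0.14, against -0.68, -0.47, -0.31 and -0.07 for the members. The difference between members and these highly read genes was -0.18, -0.07, -0.07 and 0.07 from the lowest to the highest range of GC content, closer to 0 in each range than the difference to all other genes of 1000 reads or more. Correlations of the KD-2 difference with exon length (r = -0.21), coding length (r = -0.02) and mean reads (r = -0.30) were weaker over the 72 members.

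The members are spread over 19 chromosomes, with 14 on chromosome 7 and 4 on the X chromosome (Rps4x, Rpl10, Rpl36a and Rpl39). The 4 X-linked members had a median of -0.72 in KD-2 and -0.07 in KD-1, and all 4 were lower past 1.5-fold in KD-2. Autosomal members had medians of -0.37 and -0.03, and 8 of 71 were lower past 1.5-fold in KD-2. Among other genes that averaged 1000 reads or more, the 314 on the X chromosome had a median of -0.36 in KD-2 and the 7470 on autosomes -0.15. Of these other genes, 79 of 314 on the X chromosome and 622 of 7470 on autosomes were lower past 1.5-fold in KD-2. In KD-1 their medians were -0.04 and -0.02. Rpl10 had 208669, 183191 and 133091 scaled reads (control, KD-1, KD-2), the lowest KD-1 value of the 4 at -0.19. Less the median of other genes of like GC content, Rpl36a was at -0.49, Rpl10 at -0.47, Rps4x at -0.42 and Rpl39 at -0.42 in KD-2. Some autosomal members lay in the same range, such as Rps23 at -0.47, Rps25 at -0.45 and Rps27a at -0.44.

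Many ribosomal protein genes carry snoRNAs, which guide rRNA modification, in their introns. Here 29 members held 56 annotated snoRNAs. The KD-2 median was -0.38 for these 29 members and -0.39 for the 46 tested members without a snoRNA, and the KD-1 medians were -0.02 and -0.04. A counted gene of the opposite strand overlapped the exons of 14 members, and which strand was counted is not given in the sources used here. Without those 14 the KD-2 median was -0.38.

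The pyrimidine run at the start of these genes is shown next, since it is the sequence that ribosomal protein mRNAs are known to share. RefSeq promoters on GRCm38.p6 matched 56 of the 76 members. In the window from 10 bases before to 20 bases after the annotated start, a run of at least 8 bases made only of C and T, on the gene's strand, was present in 23 of 56 member genes (41.1%). The share over all 27025 genes with a promoter entry was 13.0%. The windows below belong to members at either end of the KD-2 difference, Rpl39, Rpl36a, Rps25 and Rps4x at the low end and Rps10, Rplp2 and Rpl13 at the high end, with the longest run of C and T in capitals.
Rpl39 (chrX:37085203-37085232, minus strand): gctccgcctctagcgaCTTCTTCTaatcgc
Rpl36a (chrX:134585644-134585673, plus strand): cccaggcaccgcctataaaCTTCCgttgcg
Rps25 (chr9:44407704-44407733, plus strand): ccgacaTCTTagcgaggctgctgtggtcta
Rps4x (chrX:102189372-102189401, minus strand): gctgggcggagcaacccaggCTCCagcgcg
Rps10 (chr17:27635225-27635254, minus strand): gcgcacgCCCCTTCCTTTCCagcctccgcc
Rplp2 (chr7:141447641-141447670, plus strand): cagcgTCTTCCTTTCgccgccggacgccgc
Rpl13 (chr8:123102340-123102369, plus strand): TTTCgcctgattttgattggcgtttgagat
The run was 8 bases in Rpl39, 5 in Rpl36a, 4 in Rps25 and 4 in Rps4x. It was 13 bases in Rps10, 10 in Rplp2 and 4 in Rpl13. Runs of 8 or more were thus found at both ends, and a short run says only that these letters are absent around this annotated start.

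Genes with related roles were compared next, and their counts stand beside the 10.2% of all genes, and the 111 of 582 other genes that averaged 20000 reads or more, that were lower past 1.5-fold in KD-2. Higher past 1.5-fold in KD-2 were 17.1% of all genes and 22 of those 582. The list of 20 other genes known for TOP mRNAs, mostly translation factors, had a median of -0.47 in KD-2 and -0.01 in KD-1. In KD-2 all 20 were below 0 and 4 were lower past 1.5-fold, none higher. These were Npm1, a nucleolar chaperone, at -0.85, the histone chaperone gene Nap1l1 at -0.79, Pabpc1, which binds poly(A) tails, at -0.70, and the initiation factor gene Eif2s3x at -0.61. Eef1a1, the elongation factor with the most reads of the list, stood at 14303, 14072 and 12148 RPM (control, KD-1, KD-2) (log2 fold change -0.39 in KD-2), and Eef2 was at -0.03.

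Ribosome biogenesis factors gave a KD-2 median of -0.38 over 29 genes, with 27 below 0 and 6 lower past 1.5-fold. Heatr1 at -0.69, Dkc1 at -0.68, Rpf2 at -0.66, Nop10 at -0.66, Wdr12 at -0.64 and Ddx21 at -0.60 were those 6. In KD-1 their median was -0.06 and none passed 1.5-fold. The 77 genes of the mitochondrial ribosome had a median of -0.34 in KD-2, with 8 lower and 2 higher past 1.5-fold, and -0.04 in KD-1. For 39 proteasome subunits, another large complex of housekeeping proteins, the KD-2 median was -0.35, with 5 lower and 1 higher. The KD-2 medians of these lists lay between -0.47 and -0.34, next to -0.39 for the ribosomal protein genes.

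Regulators of ribosomal protein synthesis were closer to all genes than to the members in KD-2. Over 18 genes their medians were 0.14 (KD-1) and -0.12 (KD-2). Myc, which drives ribosome production, had 837, 1493 and 1070 reads in control, KD-1 and KD-2 (log2 fold change 0.61 in KD-1 and 0.25 in KD-2). Akt1s1, which encodes the mTORC1 inhibitor PRAS40, had 1583, 1984 and 3429 reads and was higher past 1.5-fold in KD-2 at 1.01. Larp1, the TOP binding protein, had log2 fold changes of 0.27 (KD-1) and -0.38 (KD-2), and Mtor was at 0.10 and 0.09.

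Paralogs and ribosomal proteins with other symbols were also looked up. Of 12 with at least 10 reads, 11 were below 0 in KD-2, with a median of -0.39 and 4 lower past 1.5-fold. Those were Rpl3l at -1.04 on 31 and 16 reads, Rpl22l1 at -0.66, Rpl10l at -0.62 and Rps3a1 at -0.59. The exception was Rps4l, a paralog of Rps4x, with 28344, 34985 and 38375 reads in control, KD-1 and KD-2 (log2 fold change 0.33 in KD-2 against -0.70 for Rps4x). Rpl39l, a paralog of Rpl39, had 2701, 4929 and 2203 reads, and was higher past 1.5-fold in KD-1 at 0.64 and at -0.40 in KD-2. Rpl36al, the autosomal relative of Rpl36a, was at -0.57 in KD-2. Fau, which like Rps27a encodes a ribosomal protein fused to a ubiquitin-like protein, was at -0.09, against -0.75 for Rps27a.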

How the data were processed

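RNA-Seq was done on 3 libraries, control, KD-1 and KD-2, from rRNA-depleted total RNA. According to the methods and the processing notes, the authors trimmed 50 bp single-end reads with Trim Galore 0.4.1, mapped them with TopHat2 2.1.1 to mm10 and kept reads of high mapping quality. The values are the read counts of each gene as the authors deposited them, not normalized. HTSeq is named in the processing notes and featureCounts in the methods, and the strand setting is not given in the sources used here. Lines that name no gene were left out: between 21.5% and 24.1% of reads had no feature and between 1.45% and 1.65% were ambiguous.

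Libraries were scaled by the upper quartile (edgeR 4.0.16, R 4.3.3) and log2 fold changes computed after adding 0.5 reads, for genes that averaged at least 10 reads. A change past 1.5-fold counts as called, with no test, since there is 1 library per condition. Intervals are exact 95% intervals of a ratio of Poisson counts or Clopper-Pearson intervals of a share, and cover counting error only, since reads without molecular identifiers are not independent molecules. For the 2 knockdown libraries as a group, TMM scaling and the quasi-likelihood test of edgeR were used, with the Wald test of DESeq2 1.42.0 beside it and Benjamini-Hochberg adjustment in each.

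Exon lengths, coding GC content and overlaps came from GENCODE M21 on GRCm38 (23376 of 24421 genes matched by symbol and 650 by an older symbol), and promoters from RefSeq on GRCm38.p6. Alternatives were other library scalings, other folds, pseudocounts and minimum means, other denominators and lengths, and, added after seeing the data, other genes of like GC content or high counts and the members without X-linked genes, shared words or opposite-strand overlaps. Members named are the 5 highest and 5 lowest in control level and in each comparison (mean of at least 100 reads), stalk genes, Rpsa, Rpl5, Rpl11, Rps6, X-linked members, Diamond-Blackfan anaemia genes and members with few reads. Some genes that this rule names are not reported here. Rpl7, Rps23, Rpl9, Rpl32, Rpl38, Rpl41 and the genes named for their place against GC content were picked once their values were known. The members, lists and tests were chosen with earlier results of these data known. Python 3.11.15, scipy 1.17.1, pandas 2.3.3 and matplotlib 3.10.9 were used.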

Additional observations from a re-analysis of the deposited data

How the results depend on the processing

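With 1 library per condition, no fold change of a single condition has a replicate error, and the depth of 69839336 to 85258834 reads on genes limits only members with few reads (Rpl26, Rpl30, Rpl34 and Rps27). No paired analysis was possible because the labels give no replicate numbers and each condition has 1 library. Of 133 values recomputed for the main results, 70 stayed and 63 did not, and no median changed sign. A value stayed if it lay within counting error or within 1.5 times a count. In the fit of both knockdown libraries the bound was the SD of 0.211 between KD-1 and KD-2. That SD comes from the same 2 single-library medians that were judged by it, so their staying was all but fixed in advance. The members' median was -0.033 (KD-1), -0.39 (KD-2) and 0.34 (KD-1 against KD-2). Under TMM it was -0.0499, -0.35 and 0.28, under DESeq2 size factors -0.10, -0.35 and 0.23, and under total reads -0.0417, -0.23 and 0.17. Total reads moved the median of all genes in KD-2 to 0.14 and in KD-1 against KD-2 from 0.12 to -0.0419, and DESeq2 size factors moved the latter to 0.02. Less the median of all genes, members were at -0.05, -0.37 and 0.21 under every scaling. That had to be so, since scaling shifts all genes together. The 72 well-read members had medians of -0.40 (KD-2) and 0.34 (KD-1 against KD-2). Other genes that averaged 20000 reads or more had -0.40 and 0.38. Less the median of genes of like coding GC content the members' median was -0.021, -0.28 and 0.18. Without X-linked members it was -0.37 in KD-2 and 0.32 in KD-1 against KD-2. Without members that share words with a counted gene it was -0.039 (KD-1) and -0.38 (KD-2), and without those that overlap a gene of the opposite strand -0.0377 and -0.38. With no minimum it was -0.38 in KD-2 and 0.33 in KD-1 against KD-2, with a minimum mean of 100 reads -0.39 in KD-2, and with 1000 reads -0.40 and 0.34.

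In KD-1, 0 members were higher and 1 lower past 1.5-fold. Past the lower bar of 0.32 1 was higher, past 2-fold 0 were lower, and 0 were lower with a minimum mean of 100 or 1000 reads or without members that share words. In KD-2, 1 member was higher and 12 lower. The number lower was 3 under total reads, 47 past the lower bar of 0.32, 0 past 2-fold and 1 less the GC median. The number higher was 2 past the lower bar of 0.32, and 0 past 2-fold, with a minimum mean of 1000 reads or without members that share words. For KD-1 against KD-2, 6 were higher and 1 lower. The number higher was 1 under DESeq2 size factors, 0 under total reads, 40 past the lower bar of 0.32, 0 past 2-fold, 0 less the GC median and 3 without X-linked members. The number lower was 2 under TMM, DESeq2 size factors, total reads and less the GC median, 3 past the lower bar of 0.32, and 0 past 2-fold, with a minimum mean of 100 or 1000 reads or without members that share words. The causes of these moves were not tested, beyond the fewer members that some settings leave.

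In the fit of both knockdown libraries the median was -0.19 and 0 members were called under each alternative. With a single knockdown library left in, a value with no test, it ranged from -0.35 to -0.05, so KD-2 decided it. The members' share of reads was 7.94%, 7.47% and 6.84% in control, KD-1 and KD-2 of all counted lines, and 12.8%, 12.7% and 11.2% without the 100 other genes of highest count. The median level was 703, 681 and 572 RPKM with all exons, 1494, 1448 and 1424 with transcript length, and 727, 709 and 531 with upper-quartile scaling.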
